A study of Mus musculus with 4 samples.

Results

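Lrmda is the protein-coding gene that held the most HOXA5-FLAG peaks in lungs of E15.5 mouse embryos. It spans 1036590 bp on the forward strand of chromosome 14 (mm10, 22019504 to 23056093). The gene was chosen by that number of peaks in these lists, so the count of peaks and the values of the peaks below are descriptions and no test was run on them. The peaks described are all those with a summit between 21900000 and 23200000, which takes in the gene and both flanks. Replicate 1 had 30 such peaks of 4289 in its list, and replicate 2 had 15 of 2832. The samples were 2 immunoprecipitates with an anti-FLAG antibody, each from lungs with the genotype Hoxa5FLAG/FLAG, in which the endogenous HOXA5 protein carries a FLAG epitope. Chromatin was fixed in 1% formaldehyde for 10 min and sheared to 200 to 500 bp on average. The 2 input libraries of the same genotype were not analysed here, and neither was an untagged lung. From the labels it cannot be told if the 2 replicates are lungs of different litters. The whole lung was used, so the cells in which a site was occupied are not known.

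HOXA5 is a homeodomain transcription factor, and in the mouse lung it is made in the mesenchyme, where it is needed for normal airway and alveolar development. Lrmda encodes a leucine-rich repeat protein, and loss of its human counterpart causes a form of oculocutaneous albinism through a defect in melanocyte differentiation. Large introns can hold enhancers that act on genes other than the one around them, and long distances between an enhancer and its target are common at genes of developmental regulators. A ChIP-seq peak gives a place of enrichment, not the gene that it acts on. The coding gene next to the 5′ end of Lrmda is Zfp503, also known as Nolz1, which encodes a zinc finger transcriptional repressor used in limb and brain development.

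The start sites of Zfp503 and Lrmda lie 30.1 kb apart and point away from each other, and the chain of peaks runs across both. Their promoters are printed because they are the 2 coding start sites closest to the chain, with the 250 bases before the start in lower case and the first 50 transcribed bases in capitals. The sequences are RefSeq's for GRCm38.p6, the assembly of mm10. For Lrmda the promoter table puts the start site at 22019712, inside the annotated span. The Zfp503 window is chr14:21989552-21989851 on the reverse strand and the Lrmda window is chr14:22019462-22019761 on the forward strand.
Zfp503: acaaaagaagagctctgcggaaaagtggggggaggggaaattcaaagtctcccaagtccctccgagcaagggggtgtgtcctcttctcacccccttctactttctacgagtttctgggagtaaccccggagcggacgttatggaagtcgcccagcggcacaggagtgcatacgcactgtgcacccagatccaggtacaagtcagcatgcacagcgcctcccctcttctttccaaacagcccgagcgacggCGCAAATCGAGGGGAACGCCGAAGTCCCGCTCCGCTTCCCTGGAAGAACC
Lrmda: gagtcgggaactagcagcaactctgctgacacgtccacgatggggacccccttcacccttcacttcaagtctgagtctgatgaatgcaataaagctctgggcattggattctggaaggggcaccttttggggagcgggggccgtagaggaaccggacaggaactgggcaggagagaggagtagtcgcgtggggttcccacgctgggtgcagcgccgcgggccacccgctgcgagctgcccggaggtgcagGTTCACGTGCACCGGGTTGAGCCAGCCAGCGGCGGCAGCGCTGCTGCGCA
Both windows were rich in G and C, with 58.3% for Zfp503 and 64% for Lrmda, against a median of 52.7% over 32851 annotated promoters. They held 19 and 21 CG dinucleotides, against a median of 7. The homeodomain word TAATTA was in neither window and in 5.29% of all promoters. The HOX and PBX word TGATTNAT was in neither and in 3.22% of all, and the MEIS word TGACAG was in neither and in 19.2% of all, each searched on both strands. No peak of either list overlapped the Lrmda window or any of the 21 promoter windows of genes within 1 Mb of the locus. Over all promoters 0.384% were overlapped by a replicate 1 peak and 0.167% by a replicate 2 peak, so an empty window is the usual case in these lists. The sequences under the peaks themselves were not analysed here.

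Of the 30 replicate 1 peaks, 23 had their summit inside Lrmda, 4 lay before its start and 3 beyond its end. Of the 15 replicate 2 peaks, 12 lay inside, 2 before and 1 beyond. A peak was called shared when it overlapped a peak of the other list by at least 1 bp. By that rule the locus held 13 shared peaks, of which 10 were inside the gene, 2 upstream and 1 downstream. The map of folds along the gene shows them. The annotation used gives no exons, so exonic and intronic summits were not told apart. Without the replicate 1 list the locus holds 15 peaks, and without the replicate 2 list 30.

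**Figure D1:**
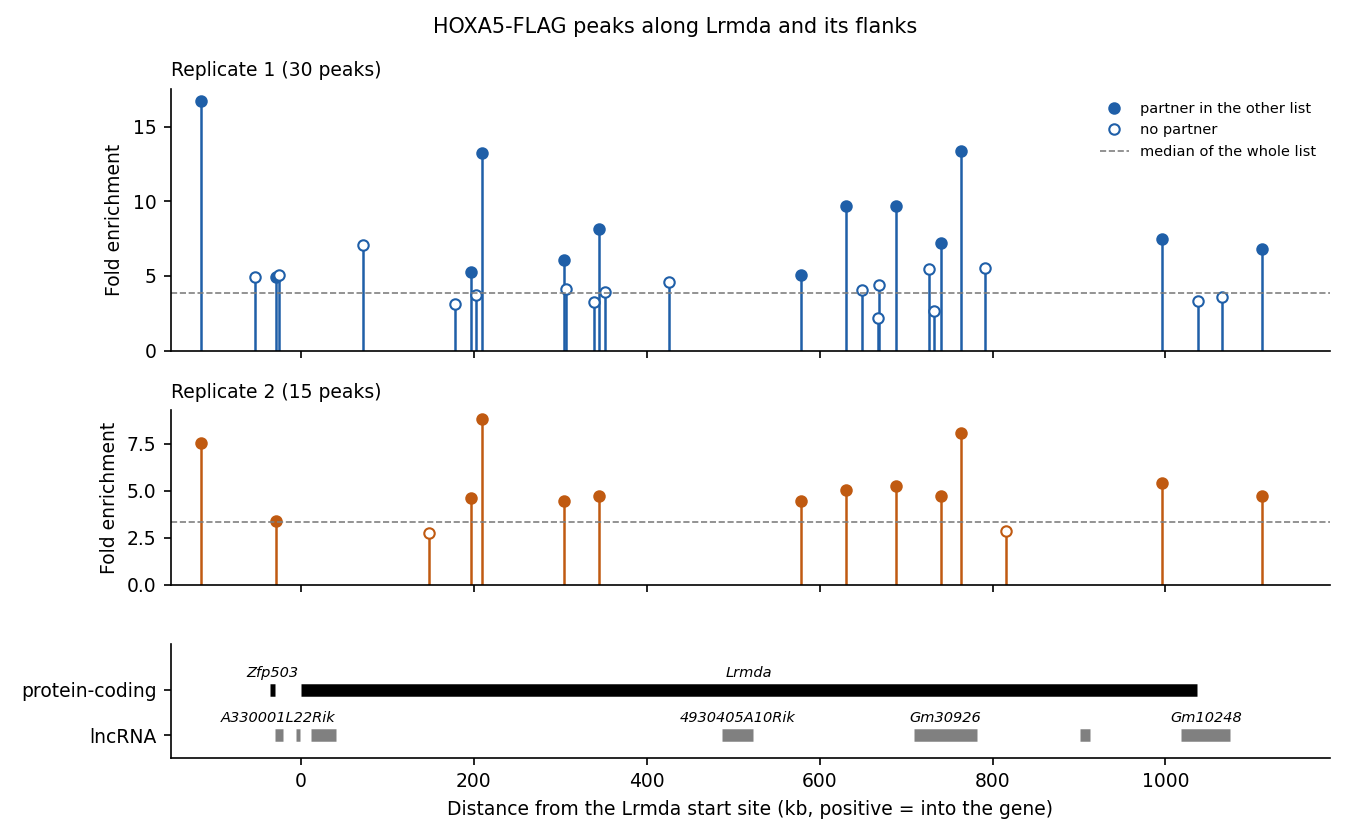
Fold enrichment at the summit (vertical axes, the authors' values, separate scales) of every peak against its distance from the Lrmda start site in kb, for replicate 1 (top) and replicate 2 (middle), with annotated genes below. Filled points have a partner in the other list, open points have none, and dashed lines mark the median fold of each whole list; the 3 peaks above 10-fold in replicate 1 lie at -115.8, 209.1 and 763.7 kb and are the 3 highest of replicate 2 as well.

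The fold enrichment given here is the authors' value at a peak's summit and belongs to the peak's own list. Upstream of Lrmda, the first peak of the chain lay 115.8 kb before the start site, at 21903555 to 21904862. It had the highest fold of the locus in replicate 1, at 16.7, which ranked 66th of the list, and 7.57 in replicate 2, which ranked 136th. It lay in no annotated gene. The second shared peak, at 21991274 to 21991570, was the weakest shared peak of the chain, with 4.93-fold in replicate 1 and 3.39-fold in replicate 2. It lay 1.84 kb upstream of the Zfp503 start site, inside the noncoding RNA gene A330001L22Rik, which starts next to Zfp503 and runs the other way. A replicate 1 peak without a partner, of 5.06-fold, lay 3.05 kb farther on in the same noncoding gene.

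Within Lrmda no peak lay in the first 71 kb. The first inside the gene, at 22090868 to 22091268 and 71.4 kb from the start, had 7.08-fold in replicate 1 and no partner, and it was the highest unshared peak of the locus. The first shared peak inside the gene lay 196.3 kb from the start, at 22215745 to 22216240, with 5.23-fold in replicate 1 and 4.63-fold in replicate 2. At 12.7 kb from it, the closest spacing of neighbouring shared summits within the window, followed the peak at 22228578 to 22229012. Its fold was 13.2 in replicate 1 and 8.85 in replicate 2, the highest replicate 2 value of the locus. Its summits in the 2 lists were 1 bp apart. Shared peaks at 22323171 to 22323756 (6.05- and 4.47-fold in replicates 1 and 2) and at 22364355 to 22365208 (8.13- and 4.75-fold) lay 303.8 and 345.0 kb from the start. The summits of the second were at the same base in both lists.

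A gap of 233.1 kb, the widest between neighbouring shared summits, followed these. In that gap replicate 1 had 2 peaks without a partner, of 3.95-fold at 22371025 to 22371354 and of 4.62-fold at 22445395 to 22445724. Of the 13 shared peaks, 7 lay beyond that gap. The first was at 22597643 to 22597968 (5.04-fold in replicate 1, 4.46-fold in replicate 2). Peaks at 22649603 to 22650853 and 22708211 to 22708825 had almost equal folds, 9.68 and 9.65 in replicate 1, and 5.07 and 5.25 in replicate 2.

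The next shared peaks lay inside the noncoding RNA gene Gm30926, which is nested in Lrmda. The peak at 22759344 to 22760979 was the longest of the replicate 1 list at the locus, with 1636 bp, 7.18-fold in replicate 1 and 4.71-fold in replicate 2. It was the one shared peak whose summits lay more than 100 bp apart, by 112 bp. The peak at 22782993 to 22783734 had 13.4-fold in replicate 1 and 8.09-fold in replicate 2, the second highest of the locus in each. No function of Gm30926 is given in the sources used here.

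After a gap of 232.4 kb, a shared peak at 23015563 to 23016024 had 7.45-fold in replicate 1 and 5.43-fold in replicate 2, 40.3 kb before the end of the gene. The chain ended outside the gene at 23131612 to 23132416, with 6.79-fold in replicate 1 and 4.71-fold in replicate 2. This last peak lay 75.7 kb beyond Lrmda and in no annotated gene. Between them were 2 replicate 1 peaks without a partner, of 3.29- and 3.60-fold, both within the noncoding RNA gene Gm10248.

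In 4 equal parts of the gene, each of 259.1 kb and counted from its start, replicate 1 had 5, 6, 10 and 2 peaks. Replicate 2 had 3, 2, 5 and 2, and shared peaks numbered 2, 2, 5 and 1. The median fold in replicate 1 was 5.23, 4.36, 5.24 and 6.49 in that order, the last from only 2 peaks. With so few peaks in each part, nothing is concluded on fold and number of peaks. The highest folds were 13.2, 8.13, 13.4 and 7.45. Peaks were thus most numerous in the third of the 4 parts in both lists, while the peaks above 10-fold inside the gene lay 1 each in the first and the third.

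The summits were unevenly spaced. Neighbouring summits in replicate 1 lay a median of 24.5 kb apart (1.77 to 205.0 kb, 29 distances), with 9 distances under 10 kb. In replicate 2 the median was 55.5 kb (12.7 to 233.1 kb, 14 distances), and between shared summits it was 73.1 kb (12.7 to 233.1 kb, 12 distances). Of the distances between shared summits, 4 were over 100 kb. Over the chromosomes the median distance was 310.0 kb in replicate 1, 533.3 kb in replicate 2 and 701.5 kb between shared summits. With peaks of at most 1000 bp the shared median at the locus was 110.7 kb. Of the 17 replicate 1 peaks without a partner, 6 lay within 10 kb of a shared summit and the median distance was 19.0 kb (3.05 to 99.6 kb). Short distances go with the choice of a gene with many peaks. The same distances over the whole list were not computed, so no clustering around shared peaks is shown.

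**Figure D2:**
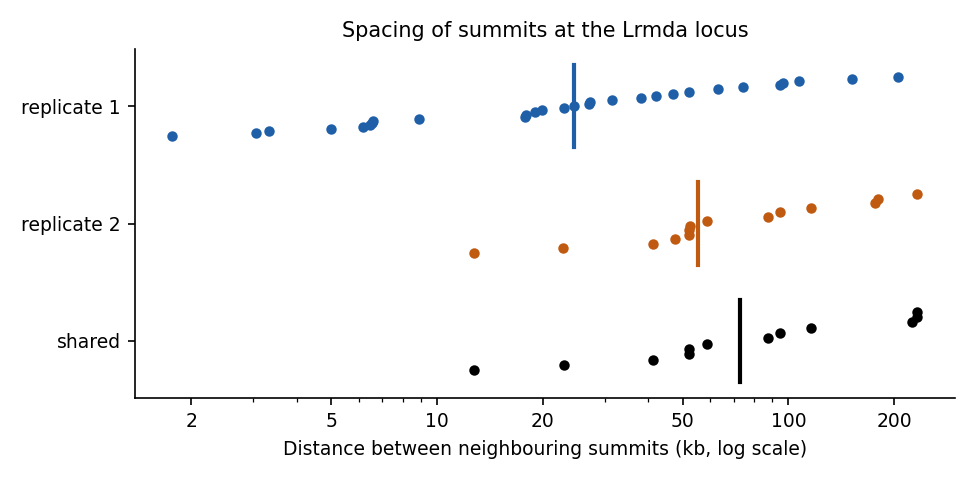
Distance between neighbouring summits at the locus in kb (log scale) for replicate 1, replicate 2 and shared peaks; each point is 1 distance, sorted upwards within its row, and the vertical bar is the median. The medians are 24.5, 55.5 and 73.1 kb.

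In replicate 1, 13 of the 30 locus peaks had a partner (43.3%, 95% Wilson interval 27.4 to 60.8), against 51.2% of the whole list. In replicate 2, 13 of 15 had one (86.7%, 62.1 to 96.3), against 77.6% of the whole list. Both intervals hold the share of the whole list, which includes these peaks, and both rest on the same 13 pairs. A difference in sharing was not tested, and no conclusion is drawn from this few peaks. The intervals treat peaks as independent and cover counting error only. The 2 replicate 2 peaks without a partner were also the lowest of that list at the locus, with 2.76-fold at 22168206 to 22168491 and 2.87-fold at 22835737 to 22836289.

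Within replicate 1 the shared peaks of the locus reached higher folds than the unshared ones, and the 2 ranges overlapped. Shared ones had 4.93- to 16.7-fold with a median of 7.45, and unshared ones 2.21- to 7.08-fold with a median of 4.07. In the whole list the medians were 4.21 and 3.63. Of the locus peaks of at least 5-fold, 12 of 16 had a partner (75.0%), against 71.2% of all replicate 1 peaks that high. Below 5-fold 1 of 14 did (7.14%), against 43.4% in the whole list. The cut at 5 was chosen with these values known, so counts and shares are given without an interval. After the 7.08-fold peak, the highest unshared peaks were one of 5.53-fold at 22810617 to 22811065 and one of 5.45-fold at 22746189 to 22746798. The lowest, of 2.21-fold at 22686773 to 22687048, had a −log10 q of 2.38, near the lowest of the list (2.01).

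The folds at the locus stood above the middle of each list. Of the 30 replicate 1 peaks, 23 exceeded the list's median of 3.87 and 6 were in its top 10%. Their own median was 5.05 (2.21 to 16.7). Of the 15 replicate 2 peaks, 13 exceeded the list's median of 3.36 and 3 were in its top 10%. Their median was 4.71 (2.76 to 8.85). None approached the highest folds of the lists, which were 58.1 and 25.6.

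For the 13 shared peaks the fold was higher in replicate 1 every time, by 1.13 to 2.20 times with a median of 1.50. Over all 2175 shared peaks the median ratio was 1.23. How many of those had the higher fold in replicate 1 was not counted. The locus peaks began at 4.93-fold in replicate 1, above the median of 4.23 for all shared peaks. The ratio was not compared with that of other peaks of like fold, so it is not shown to be particular to the locus. The order of the peaks was much the same in the 2 lists. The correlation of log2 fold between lists was r = 0.90 (Spearman's rho = 0.93) over the 13 peaks, against r = 0.84 (rho = 0.77) over all shared peaks. These are given as a description, since the peaks of a list share 1 library. The first peak of the chain was furthest from the common ratio, at 2.20. Summits of shared peaks lay 0 to 112 bp apart between lists, with a median of 27 bp.

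**Figure D3:**
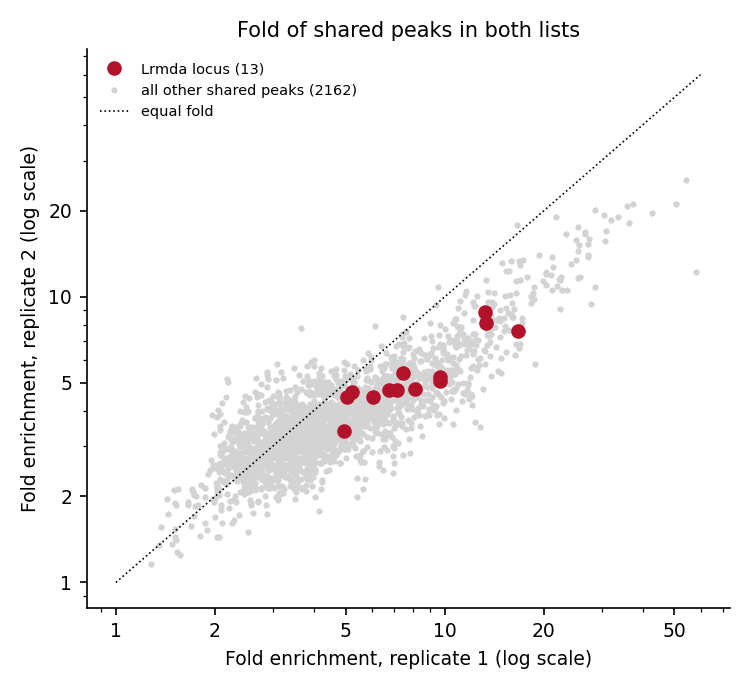
Fold enrichment of shared peaks in replicate 1 (horizontal) and replicate 2 (vertical), both on log scales, for the 13 at the Lrmda locus and the 2162 others; the dotted line marks equal fold. All 13 lie below the line, from 4.93 to 16.7 in replicate 1 and 3.39 to 8.85 in replicate 2. Over all 2175 shared peaks the median ratio of replicate 1 to replicate 2 fold was 1.23, so a higher fold in replicate 1 was the more common case.

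Most peaks of the chain were narrow. In replicate 1 they were 276 to 1636 bp long with a median of 433 bp, against 414 bp for the whole list. In replicate 2 they were 286 to 1225 bp with a median of 469 bp, against 436.5 bp. Peaks over 1000 bp numbered 3 of 30 in replicate 1 (10.0%, against 10.8% of the list) and 1 of 15 in replicate 2 (6.67%, against 17.6%). The single long replicate 2 peak was the first of the chain, which was long in replicate 1 too (1308 bp). The other 2 long replicate 1 peaks, of 1251 and 1636 bp, had replicate 2 partners of 450 and 606 bp. At the locus length went with fold, with rho = 0.65 over 30 peaks in replicate 1 and 0.43 over 15 in replicate 2. Over the whole lists rho was 0.0007 and -0.04, but those lists hold peaks of up to 45815 and 85688 bp. The relation was not computed for list peaks of like length, so it is not shown to be particular to the locus. All the peaks together covered 16468 bp in replicate 1 and 7469 bp in replicate 2, or 1.27% and 0.575% of the window.

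**Figure D4:**
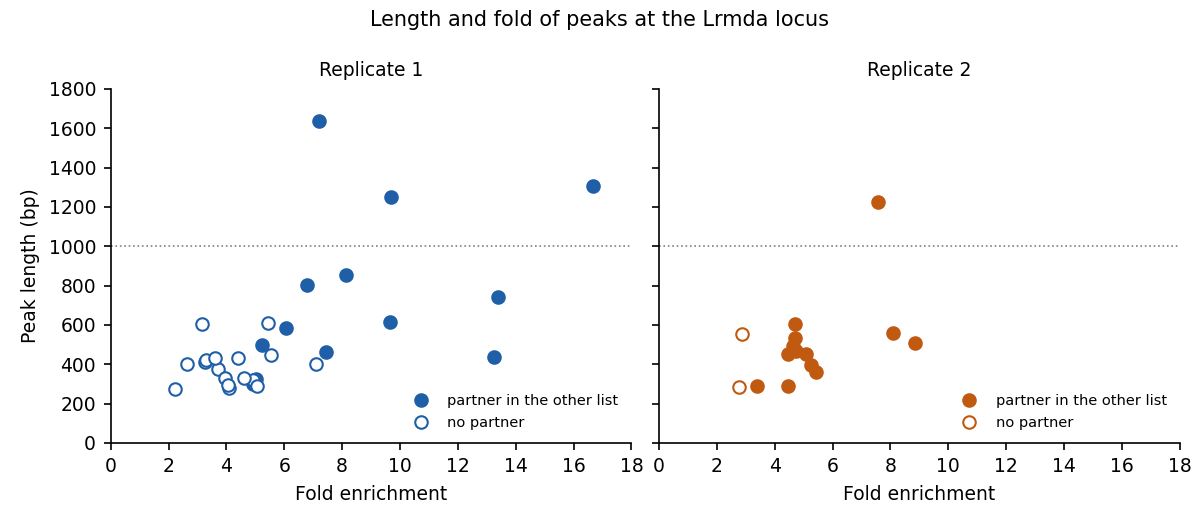
Peak length in bp against fold enrichment for the 30 replicate 1 peaks (left) and the 15 replicate 2 peaks (right) at the locus; filled points have a partner in the other list and the dotted line marks 1000 bp. All 4 peaks above the line have a partner, and the unshared peaks of replicate 1 reach at most 610 bp. This is the usual case, since 435 of 465 peaks over 1000 bp in the whole replicate 1 list had a partner. In the whole replicate 2 list 447 of 499 did.

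Lrmda was next set beside other genes, since a long gene can hold more peaks by its length. It was the 54th longest of 21775 protein-coding genes and ranked first by peaks inside the gene in replicate 1, in replicate 2 and among shared peaks. It had 10 shared peaks, and the next genes were Ulk4 and Galntl6 with 6 each, then Bcas3 and Wwox with 5 each and Smg6, one of those with 4. Of 225 other genes of at least 500 kb, 117 held no shared peak, and the most that any held was 6. Per Mb of gene Lrmda had 22.2 replicate 1 peaks, 11.6 replicate 2 peaks and 9.65 shared peaks. The other long genes pooled had 1.54, 1.02 and 0.774 per Mb. Among 2426 coding genes of at least 100 kb, however, Lrmda ranked 36th by shared peaks per Mb, behind 35 genes of 100.8 to 472.9 kb that held 1 to 6, 24 of them 1 or 2. By replicate 1 peaks per Mb it ranked 9th and by replicate 2 peaks 26th.

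**Figure D5:**
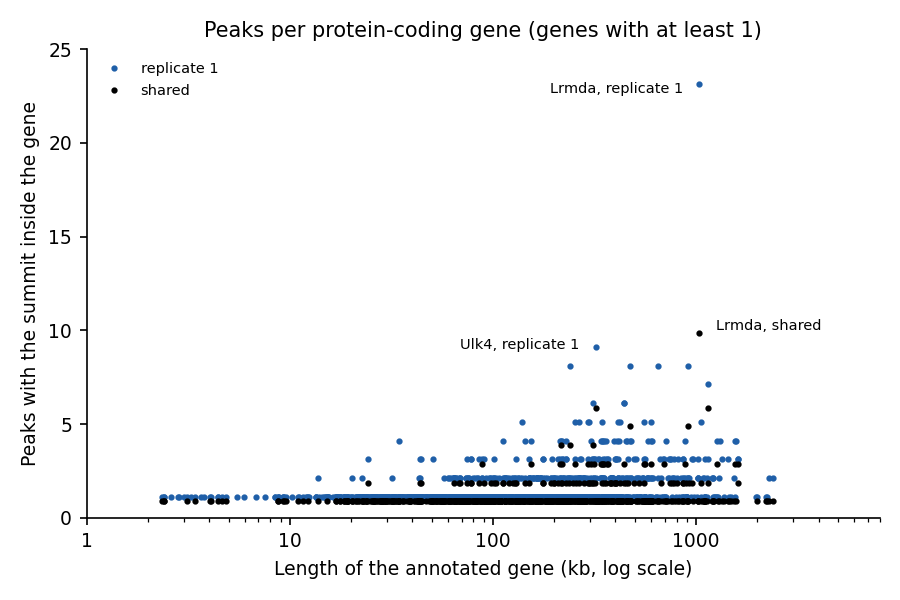
Number of peaks with the summit inside each protein-coding gene (vertical) against the length of the gene in kb (log scale), for genes with at least 1, in replicate 1 and among shared peaks; points are drawn slightly above (replicate 1) or below (shared) their count so that both show. Lrmda has 23 replicate 1 and 10 shared peaks, and the next gene by either count has 9 and 6.

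Shared peaks in these genes were not alike in fold or length. In Lrmda their median fold was 7.79 in replicate 1 and 4.91 in replicate 2, with a median length of 600.5 bp in replicate 1. Ulk4, which encodes a kinase-like protein, had low folds and long peaks, with medians of 3.13 and 2.75 and 1080 bp. Galntl6, a glycosyltransferase gene of 1140 kb and so close to Lrmda in length, had 4.32 and 3.57 and 509 bp. Wwox, which encodes an oxidoreductase with WW domains, had 10.4 and 5.07 and 541 bp. Bcas3 had 7.08 and 5.54, and Smg6, which encodes a nuclease of nonsense-mediated decay, 4.31 and 3.62.

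With each shared peak given to the coding gene that held it, or to the nearest gene end within 100 kb, Lrmda took 11 peaks. Cd47, which encodes the cell surface signal against phagocytosis, took 4, with 3.59- to 6.79-fold in replicate 1. Mecom, a zinc finger transcription factor gene of 558.5 kb, took 4, with 3.43- to 7.30-fold. Phlda1 took 2, with 4.07- and 6.65-fold. Neighbouring shared summits within 100 kb of these genes lay a median of 58.6 kb apart at Lrmda (12 summits) and 1.93 kb at Cd47 (4). At Mecom (4) the median was 88.6 kb, and at Phlda1 (2) the single distance was 51.6 kb. By the same rule the first peak of the chain went to A430057M04Rik, 47.0 kb away, the second to Zfp503, and the last to Lrmda.

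In fixed windows of 1 Mb, the window from 22 to 23 Mb of chromosome 14, almost all of it within Lrmda, held 22 replicate 1 peaks, the most of 1829 windows with any. It held 9 shared peaks, second to a window at 20 to 21 Mb of chromosome 8 with 11. The shared peaks of the Lrmda window had a median fold of 8.13 in replicate 1 and a median length of 615 bp, against 3.85 and 2669 bp in the chromosome 8 window. The window before it on chromosome 14 held 5 shared peaks and the one after it 3.

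No protein-coding gene lies within Lrmda, while 4 noncoding RNA genes and 3 pseudogenes do. Of the nested noncoding RNA genes, Gm30926 held 4 replicate 1, 2 replicate 2 and 2 shared summits. Gm41107, 4930405A10Rik and Gm30783 held none. Zfp503 itself held no summit, but 5 replicate 1, 3 replicate 2 and 3 shared summits lay within 100 kb of it. These counts include the shared peak at 21891849 to 21892135, just before the window and so not part of the chain. From the Zfp503 start site the 13 shared summits of the chain lay 1.84 to 1142 kb away.

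Of 13 other coding genes within 1 Mb of the window, 2 held a shared peak (15.4%), against 707 of all 21775 coding genes (3.25%). Both are long genes, and no account was taken of length in these shares. Kcnma1, beyond the 3′ end of Lrmda, encodes the pore-forming subunit of the BK potassium channel, which limits the tone of smooth muscle. It spans 712.8 kb and held 4 replicate 1 peaks and 1 shared peak, at 23523838 to 23524376, with 8.44-fold in replicate 1 and 4.69-fold in replicate 2. The other 3 had 2.83- to 4.03-fold. The start site of Kcnma1 is at the far end of that gene, 872.4 kb from the nearest shared summit of the chain. Adk, which encodes adenosine kinase, held 3 replicate 1 peaks and 2 shared ones. Its higher shared peak, at 21368845 to 21369492, had 9.28-fold in replicate 1 and 4.05-fold in replicate 2. The other had 4.26 and 4.00.

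Kat6b, which encodes a histone acetyltransferase, and Dupd1, a dual-specificity phosphatase gene, held 1 unshared replicate 1 peak each, of 3.42- and 4.39-fold. Vcl, which encodes vinculin, and the genes Ap3m1, Dusp13, Samd8, Vdac2, Comtd1, A430057M04Rik and Dlg5 held none in either list. Vdac2, a gene of a mitochondrial outer membrane channel, Comtd1 and A430057M04Rik each had 2 shared summits within 100 kb. These were the first of the chain and the shared peak just before the window. Which of these genes, if any, the sites in Lrmda act on was not tested, since the peak lists hold no expression or contact data.

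At the edges, the last peak inside the window on the left was the first of the chain, so that place is set by the window. The nearest one outside lay 8.04 kb before the window in replicate 1, at 21891849 to 21892135, and was shared, with 3.27-fold in replicate 1 and 3.45-fold in replicate 2. On the right the nearest outside peak was the first of the Kcnma1 peaks, 186.0 kb beyond the window in replicate 1, with 4.03-fold and no partner. In replicate 2 it was 324.1 kb beyond. Distances across the edges of the window are not among the spacings given above.

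Because Lrmda is known from pigment cells, a list of 38 genes was looked up, of which 37 were matched. Asip was not matched by its symbol, so any peaks at that gene are not counted. All listed genes are genes of melanocytes, melanosomes or related organelles except Melk, a cell cycle kinase gene that was listed in error. Of the 37 matched genes 3 had a shared peak inside or within 100 kb (8.11%, or 8.33% without Melk), against 1294 of 21775 coding genes (5.94%). The share was near that of all genes. Lyst, a lysosomal trafficking gene, had 2.88-fold in replicate 1 and 5.46-fold in replicate 2. Myo5a, which encodes the myosin that carries melanosomes, had 3.13 and 2.67. Kit, the receptor gene for stem cell factor, had a peak of 3.26- and 2.35-fold 30.1 kb from the gene. In replicate 1 all 3 were lower than each of the 13 shared peaks at the Lrmda locus. In replicate 2 the Myo5a and Kit peaks were lower than each of them too, but the Lyst peak was higher than 10 of the 13.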

How the data were processed

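ChIP-seq peak lists were used, 1 for each HOXA5-FLAG immunoprecipitate. The submitters' processing notes name the mm10 build, the aligner Bowtie2 2.5.2 and the peak caller MACS3 3.0.1, besides bedtools 2.31.0, SAMtools 1.18, Trim Galore, FastQC 0.12.1 and deepTools. Caller settings, control and region filters are not given in those notes. Fold enrichment (a ratio), −log10 p and −log10 q are the authors' deposited values per peak. The lists hold no read counts, so depth is unknown, and a deeper library can pass more peaks. Sample titles say wt and the genotype label says Hoxa5FLAG/FLAG, and peak names in the replicate 2 list carry the number 6; the labels were followed.

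Peaks were read with Python 3.11.15 and pandas 2.3.3. Overlapping peaks of the 2 lists (at least 1 bp) were merged into shared peaks, placed at the replicate 1 summit. The procedure was tested on simulated intervals. Gene spans came from a RefSeq table of GRCm38.p6, leaving out genes with a start below 3 Mb except on Y. Start sites and strands came from RefSeq promoter windows of 250 bases before and 50 after the start. Named were Lrmda, coding genes within 1 Mb of the window, the 5 genes next by shared peaks, 3 similar loci, melanocyte genes with a shared peak, and peaks ranked by fold, length, spacing or position. Members and lists were chosen with earlier results of these data known. No test was run, and alternatives are given at the end.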

Additional observations from a re-analysis of the deposited data

How the results depend on the processing

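Of 48 recomputed values, 38 stayed within 1.5 times of a count, within the interval of a share or within the spread between the lists, and 10 moved. That spread was the standard deviation of the 2 lists' medians over all locus peaks, shared or not (0.242 for fold, 25.5 bp for length). The medians of shared peaks differed more between the lists, at 7.45 and 4.75 for fold and 615 and 469 bp for length. A fold or length that moved by this measure may thus have changed little. Lrmda ranked first among coding genes under every overlap rule, threshold and length limit tried, with either list alone and with noncoding genes counted, but 36th by shared peaks per Mb. The gene was chosen for its number of peaks in these same lists, so its first rank is a description and no support. The number of shared peaks, 13, was 10 to 13 under the other rules, and single lists gave 15 and 30. The median spacing of 73.1 kb was 103 kb with reciprocal overlap of 50% and 110.7 kb with peaks of at most 1000 bp; it was 55.5 kb with the replicate 2 list alone and 24.5 kb with the replicate 1 list alone. The median replicate 1 fold of 7.45 was 7.79 with summits at most 100 bp apart, 7.79 inside the gene only and 7.12 with peaks of at most 1000 bp. The median length of 615 bp was 586 bp with reciprocal overlap and 541 bp with the length limit. Leaving Melk out of the melanocyte list, chosen after seeing the data, gave 8.33% in place of 8.11%. The cause of these changes was not tested. No paired analysis was possible because the 2 inputs that share replicate numbers with the immunoprecipitates were not analysed here, which leaves 1 group. Unknown depth limits any reading of the difference between 30 and 15 peaks.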
